A study of Mus musculus with 2 samples.

Results

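The cathepsins are proteases of the lysosome, and 9 of them were followed here in single cells of the embryonic mouse brain: Ctsa, Ctsb, Ctsc, Ctsd, Ctsf, Ctsh, Ctsl, Ctss and Ctsz. They were chosen by symbol, as 9 of the 31053 features of both count matrices, and every one of them was detected in both libraries. The cells had been sorted as positive for Cd11b and Cd45, surface proteins of myeloid cells, from the hypothalamic and thalamic region of CD1 embryos, an outbred strain, at E15.5. The control library pooled 10 embryos of 1 dam. The stressed library pooled 5 embryos of 1 other dam, which had spent 30 min of each day at 4 °C between E11.5 and E15.5. Neither group carried a transgene. With 1 library per condition there was no replicate: no test between conditions was possible, and all intervals below are 95% intervals of counting error alone.

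Cathepsins are made as inactive proenzymes, are carried to the lysosome largely by mannose 6-phosphate receptors, and mature there at low pH. Most are cysteine proteases held in check by cystatins, while Ctsd is an aspartic protease and Ctsa a serine carboxypeptidase. Microglia and other macrophages express them abundantly, using them to degrade what they take up and, in the case of Ctss, to trim the invariant chain of MHC class II.

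The stressed library was the deeper one. Median depth was 1948 UMIs (unique molecules counted) per barcode in the control library of 1156 barcodes and 3767 UMIs in the stressed library of 1467 barcodes, of which 1068 and 1407 cells were kept. Marker genes placed 639 control and 1115 stressed cells in a microglia-like class, 79 and 28 in a border-associated macrophage-like class and 196 and 150 in a neural-like class. All 10 microglial markers were detected in the microglia-like cells of both libraries, whereas of the 10 border markers 8 were detected there in the control library (444 CPM in sum) and 9 in the stressed library (387 CPM). In border-associated cells the same list summed to 14197 and 11582 CPM. Lyve1 and Cd163 had at most 1 UMI in microglia-like cells. The microglial list summed to 6436 and 6368 CPM in microglia-like cells. In border-associated cells 9 of its 10 markers were detected in each library, at 626 and 742 CPM in sum. Both lists set the gate, so these contrasts were fixed in advance and do not test the class names. The libraries also differed in the sex of their embryos: Xist stood at 569 and 1855 CPM (UMIs per 1000000 of the class) in control and stressed microglia-like cells, and 4 Y-linked genes together at 110 CPM and 1 UMI. Neural markers summed to 98.3 and 109 CPM in microglia-like cells, and the median mitochondrial share of kept cells was 2.13% and 3.51%. The libraries shared 13 barcodes, of which 0 control and 1 stressed cell were microglia-like. Dam, litter, sex, depth and treatment cannot be told apart between these libraries.

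In microglia-like cells, cathepsin transcripts took a smaller share of all UMIs in the stressed library, and the difference was carried mainly by Ctsb. The 9 genes together made up 15096 CPM in the control and 11470 CPM in the stressed library (log2 ratio -0.40, -0.42 to -0.37). Ctsb supplied 31.9% of the cathepsin UMIs of control microglia-like cells and 17.4% of those of stressed ones. The part of Ctsd was close in both, at 35.4% and 36.6%, and that of Ctsz was 11.0% and 17.2%. These are shares of UMIs from 3′ ends.

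Ctsb encodes a cysteine protease with both endopeptidase and exopeptidase activity. It stood at 4816 CPM in control and 1993 CPM in stressed microglia-like cells, 2.42-fold lower, with a log2 ratio of -1.27 (-1.32 to -1.23). At 1100 UMIs per cell the log2 ratio was -1.29, and in cells with Xist and no Y-linked UMI it was -1.21. With all cells and UMIs, the ratio was the 9th lowest among the 2688 genes that reached 50 CPM in either library. Of those genes, 3.24% were lower and 1.49% higher by more than 1.5 times, the fold used throughout for a call. Of the 9 cathepsins, only Ctsb was lower by that fold and none was higher, and their median log2 ratio of 0.02 lay beside -0.06 over all 2688 genes. With every gene of at least 10 CPM counted, 7.87% of 7597 genes were lower and 3.42% higher, and Ctsb was again the only cathepsin called.

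Ctsd, the main aspartic protease of the lysosome, differed in the same direction but by less. Its level was 5346 CPM in the control and 4202 CPM in the stressed library (log2 ratio -0.35, -0.38 to -0.31). Ctsl, an endopeptidase related to Ctsb, had nearly equal levels of 1327 and 1317 CPM, and the sign of its small difference changed with the scaling. Ctss, which unlike most cathepsins remains active at neutral pH, stood at 1035 and 1116 CPM, a log2 ratio of 0.11 (0.03 to 0.19). Ctsf, another cysteine protease, had 95.3 and 105 CPM, and its interval of -0.11 to 0.41 spanned 0. None of these 4 genes passed 1.5 times.

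The enzymes that trim protein ends showed no common direction. Ctsz, a carboxypeptidase, stood at 1667 CPM in the control and 1969 CPM in the stressed library (log2 ratio 0.24, 0.18 to 0.30). Ctsa, a serine carboxypeptidase that also protects beta-galactosidase and neuraminidase in the lysosome, stood at 528 and 462 CPM, a log2 ratio of -0.19 (-0.31 to -0.08). Ctsc, the dipeptidyl peptidase that activates granule serine proteases, had 205 and 208 CPM. Ctsh, an aminopeptidase, had 75.7 and 97.7 CPM and a log2 ratio of 0.37 (0.08 to 0.66).

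**Figure D1:**
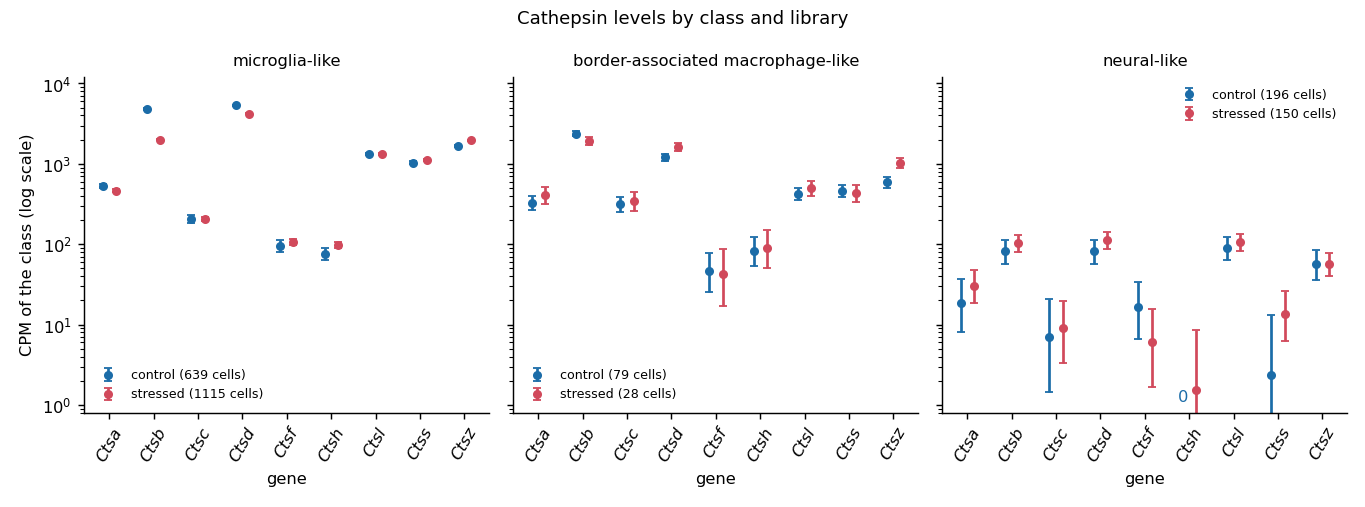
Level of each cathepsin in control (blue) and stressed (red) cells of 3 classes, as CPM of the class on a log scale, with exact Poisson 95% intervals of counting error. Ctsb stands at 4816 CPM in control and 1993 CPM in stressed microglia-like cells, and neural-like cells lie far below both macrophage classes.

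The lower Ctsb level was spread over the microglia-like cells. To compare cells at 1 depth, each was thinned to 1100 UMIs, which left 591 control and 1112 stressed cells and dropped 48 and 3 shallower ones. The median cell then held 5 Ctsb UMIs in the control library (quartiles 3 and 7) and 2 in the stressed library (quartiles 1 and 3). At least 1 Ctsb UMI was found in 95.4% of control cells (exact binomial interval 93.4 to 97.0%) and in 79.6% of stressed cells (77.1 to 81.9%). Without thinning the shares were 97.7% and 94.0%. Neural-like cells, set beside them as a background, had a Ctsb UMI in 10.0% and 6.38% of cells at the same 1100 UMIs. How much of this was free RNA was not tested. Median depths before thinning were 1555 and 3199.5 UMIs in neural-like cells against 2164 and 3981 in microglia-like cells. The 1% of microglia-like cells richest in Ctsb held 4.95% (control) and 5.69% (stressed) of its UMIs.

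The other members differed less per cell. At equal depth 96.1% (control) and 94.4% (stressed) of microglia-like cells held Ctsd, with medians of 5 and 4 UMIs. Ctsz was found in 81.2% and 82.5%, Ctss in 67.2% and 71.4% and Ctsl in 66.5% and 63.2%. Ctsa was found in 40.6% and 40.0% of cells. The 3 rarest were Ctsc with 19.3% and 18.6%, Ctsf with 11.0% and 12.5%, and Ctsh with 9.48% and 11.7%.

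**Figure D2:**
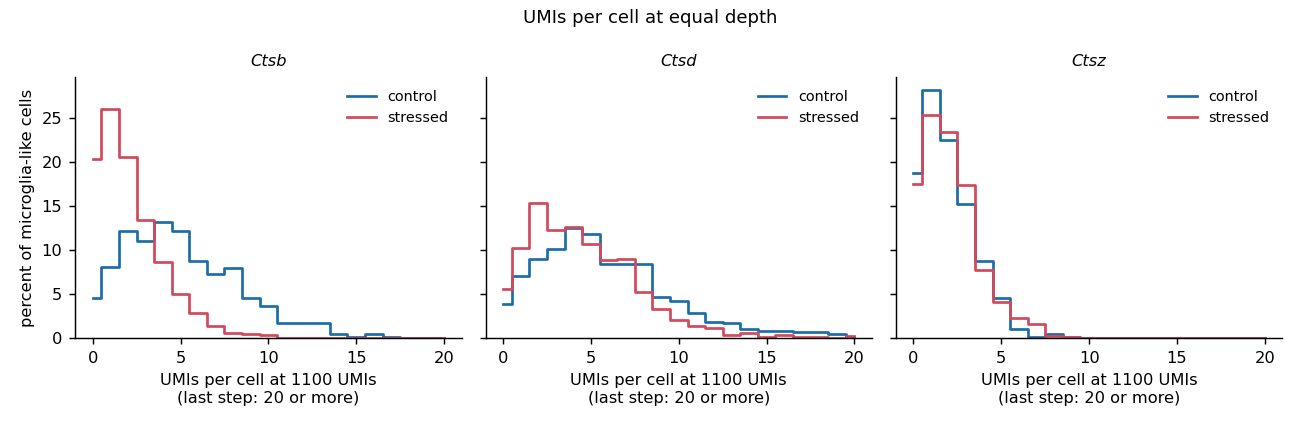
Percent of microglia-like cells with each number of UMIs of Ctsb, Ctsd and Ctsz after every cell was thinned to 1100 UMIs, for 591 control (blue) and 1112 stressed (red) cells. The Ctsb median is 5 UMIs in control and 2 in stressed cells, while the Ctsz curves nearly coincide.

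Cathepsins were only weakly related to each other from cell to cell. Over the 36 pairs at equal depth, Pearson correlations ran from -0.14 to 0.46 in the 591 control cells and from -0.09 to 0.30 in the 1112 stressed cells. The highest in both libraries was that of Ctsb with Ctsd, at 0.46 and 0.30. Ctsb and Ctsl gave 0.27 and 0.23, and Ctsl and Ctss -0.14 and -0.08. The cells of a library share 1 pool of embryos, and counts this low hold down any correlation.

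The microglia-like cells were next split by state genes that include no cathepsin. Resting-type cells made up 353 control and 656 stressed cells, Spp1-high cells 46 and 48, cells with the chemokines Ccl3 or Ccl4 99 and 152, S phase cells 47 and 89, and cells in G2 and mitosis 94 and 170. Ctsb was lower in the stressed library by more than 1.5 times in all 5 states. Resting-type cells held 4441 CPM in the control and 1854 CPM in the stressed library (log2 ratio -1.26). Spp1-high cells held 6785 and 2765 CPM (-1.29), and Ccl3 or Ccl4 cells 5970 and 2584 CPM (-1.21). In the dividing states the levels were 3991 and 1846 CPM in S phase (-1.11) and 3951 and 1700 CPM in G2 and mitosis (-1.22). The highest stressed state lay below the lowest control state.

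Within each library, Spp1-high cells held more Ctsb, Ctsc, Ctsd, Ctsl and Ctsz than resting-type cells. Spp1 encodes osteopontin, and cells rich in it are known from the early postnatal white matter. In the control library, Ctsl stood at 1946 CPM in Spp1-high and 1106 CPM in resting-type cells, a log2 ratio of 0.82, and in the stressed library at 2232 and 1181 CPM, a log2 ratio of 0.92. Ctsc differed by 0.86 and 0.85, Ctsb by 0.61 and 0.58, Ctsd by 0.60 and 0.41 and Ctsz by 0.33 and 0.25. In the control library 4 of 9 cathepsins (Ctsb, Ctsc, Ctsd, Ctsl) were higher by more than 1.5 times and Ctsh was lower, against 19.2% higher and 14.7% lower over all genes tested. In the stressed library Ctsc and Ctsl were higher and Ctsf and Ctsh lower, against 14.3% and 11.1% of all genes.

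Ctss, Ctsh and Ctsf ran the other way across these states. Ctss stood at 1171 CPM in resting-type and 798 CPM in Spp1-high control cells, and at 1263 and 918 CPM in stressed cells, log2 ratios of -0.55 and -0.46. Ctsh had 105 CPM in resting-type and 28.7 CPM (5 UMIs) in Spp1-high control cells, and 119 and 71.3 CPM in stressed cells. Ctss and Ctsh were thus lower in Spp1-high cells of both libraries, and of this pair only Ctsh passed 1.5 times. Ctsf differed by -0.45 (-1.34 to 0.35) in the control library, with 15 UMIs in Spp1-high cells. In the stressed library Ctsf differed by -1.08 (-1.81 to -0.43), past 1.5 times, with 20 UMIs in Spp1-high cells. Spp1-high cells were deeper than resting-type cells, with medians of 3758 against 1868 UMIs in the control and 5958 against 3500.5 UMIs in the stressed library, and the part of depth in these differences was not tested.

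Cells with Ccl3 or Ccl4, chemokines that activated microglia release, also held more Ctsl and Ctsc than resting-type cells in both libraries. Ctsl stood at 1986 CPM there in the control library and at 1691 CPM in the stressed library, log2 ratios over resting-type cells of 0.84 and 0.52, and Ctsc differed by 0.76 and 0.43. Ctsb (0.43 and 0.48), Ctsd (0.41 and 0.23) and Ctsz (0.35 and 0.32) were higher too, all within 1.5 times. Ctss (-0.39 and -0.26) and Ctsf (-0.41 in each library) were lower, also within 1.5 times. The control interval of Ctsf was -1.13 to 0.25. In the control library Ctsc and Ctsl were higher by more than 1.5 times and Ctsh was lower, against 15.2% and 9.09% of all genes. In the stressed library no cathepsin was higher by that fold and Ctsh was lower, against 7.91% and 5.26% of all genes. Cells of this state were also richer in Spp1 than resting-type cells, at 7075 against 614 CPM (control) and 3169 against 356 CPM (stressed). They were deeper too, with medians of 2490 and 4813.5 UMIs against 1868 and 3500.5 in resting-type cells. The parts of Spp1 and depth in these differences were not tested.

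Cells in G2 and mitosis held more Ctsc and less of several other members than resting-type cells. In control cells Ctsc stood at 252 CPM, with 152 CPM in resting-type cells, and in stressed cells at 279 and 166 CPM, log2 ratios of 0.73 and 0.74. Ctsf was lower, at 62.9 and 54.9 CPM against 117 and 131 CPM. In the control library Ctsc was the only cathepsin higher by more than 1.5 times and Ctsf the only one lower, against 18.8% and 9.56% of all genes. In the stressed library Ctsc was higher and Ctsa, Ctsf and Ctsh were lower, against 16.2% and 5.64% of all genes. Cells in G2 and mitosis were also deeper, with medians of 2802.5 and 5124 UMIs against 1868 and 3500.5 in resting-type cells. They were richer in Spp1 too, at 4193 against 614 CPM (control) and 2575 against 356 CPM (stressed). The parts of Spp1 and depth in these differences were not tested. Ctsz stood at 1239 CPM in control and 1783 CPM in stressed S phase cells, the lowest control value of that gene across the 5 states.

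**Figure D3:**
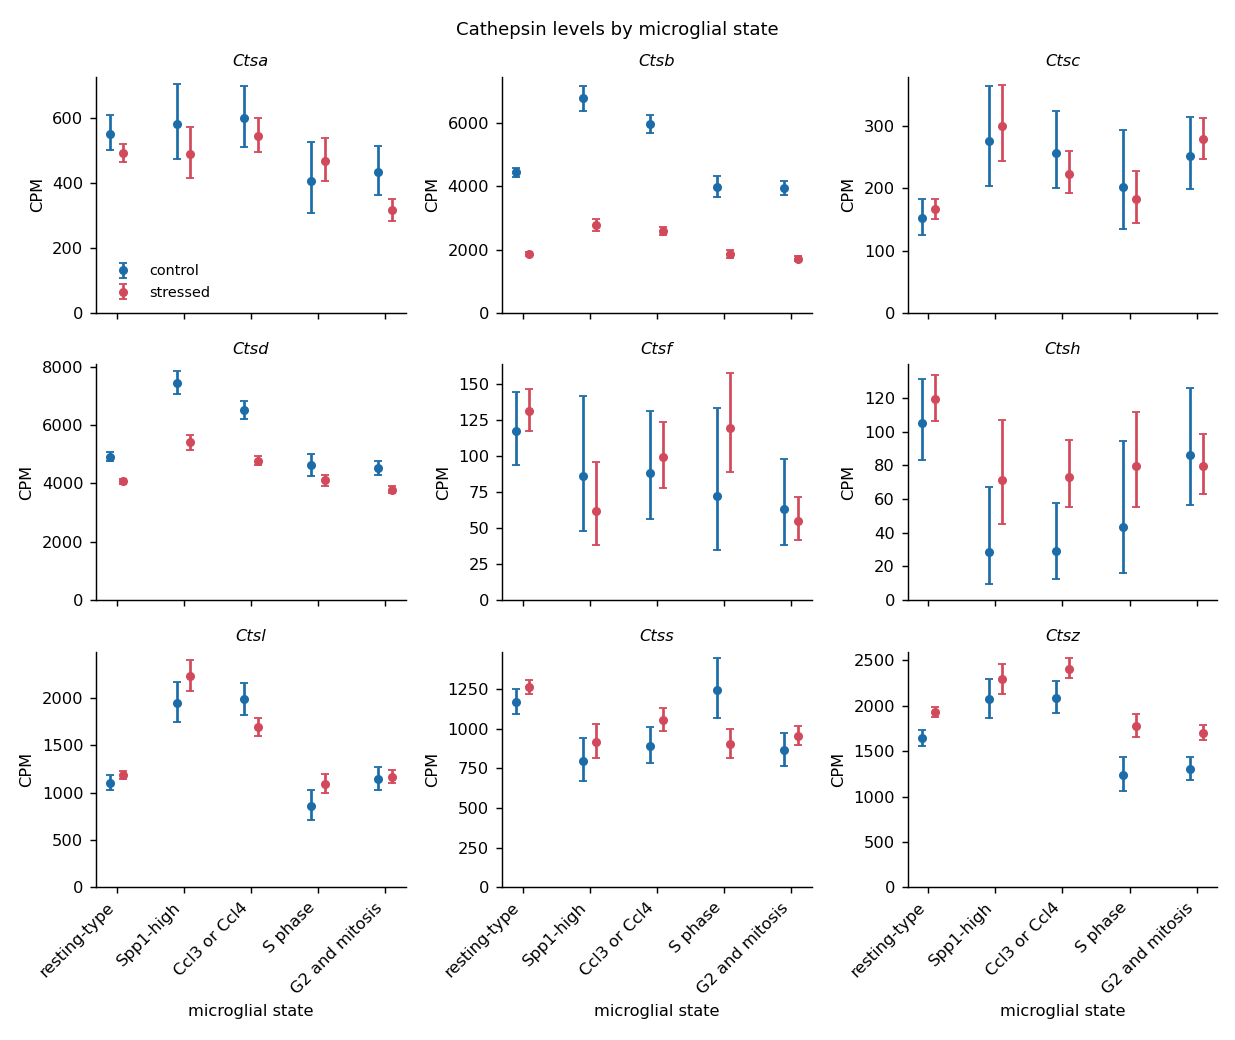
CPM of each cathepsin in 5 microglial states of the control (blue) and stressed (red) library, with exact Poisson 95% intervals of counting error and axes starting at 0. Ctsb is lower in the stressed library in all 5 states, and Ctsl and Ctsc are higher in Spp1-high than in resting-type cells of both libraries.

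Border-associated macrophages, which line the meninges and vessels, differed from microglia in their cathepsins. In the control library Ctsb stood at 2384 CPM in border-associated macrophage-like and 4816 CPM in microglia-like cells, a log2 ratio of -1.01. In the stressed library the classes stood at 1931 and 1993 CPM, a log2 ratio of -0.05. The gap in Ctsb between the classes was therefore present in the control library and nearly absent in the stressed one.

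For most other cathepsins (Ctsd, Ctsf, Ctsl, Ctss and Ctsz) the border class was the lower in both libraries. Ctsd was at 1205 CPM in control and 1624 CPM in stressed border-associated cells, log2 ratios to microglia-like cells of -2.15 and -1.37. Ctsl stood at 425 and 495 CPM (-1.64 and -1.41) and Ctss at 464 and 429 CPM (-1.16 and -1.38). Ctsc was higher in the border class of both, with 313 and 344 CPM there and log2 ratios of 0.61 and 0.73. Ctsh stood at 82.3 and 90.5 CPM in the border class, log2 ratios of 0.12 and -0.11 whose intervals spanned 0, and Ctsa was lower in the control library (-0.68) with an interval spanning 0 in the stressed one (-0.17). In the control library 7 of 9 cathepsins were lower by more than 1.5 times and Ctsc was higher, against 23.4% lower and 15.7% higher over all genes tested. In the stressed library 5 of 9 were lower (Ctsd, Ctsf, Ctsl, Ctss, Ctsz) and Ctsc higher, against 22.6% and 17.3% of all genes.

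Between the libraries, the border class also differed from the microglia-like class. In 79 control and 28 stressed cells, the Ctsb levels of 2384 and 1931 CPM gave a log2 ratio of -0.30 (-0.50 to -0.11). Ctsz stood at 586 and 1032 CPM there, 1.76-fold higher in the stressed library, and was the only cathepsin of the 8 with at least 50 CPM to pass 1.5 times. None was lower by that fold, while 14.9% of all genes in this class were higher and 16.9% lower. The ratio of Ctsb was lower in microglia-like than in border-associated cells by a difference of -0.97 on the log2 scale (-1.16 to -0.77), and that of Ctsz by -0.58 (-0.88 to -0.27). Ctsd was lower in stressed microglia-like cells but higher in stressed border-associated cells (0.43, 0.20 to 0.66), a difference of -0.78 (-1.01 to -0.55). At equal depth Ctsb was found in 85.7% of border-associated cells of either library, and Ctsz in 40.3% (control, 77 cells) and 64.3% (stressed, 28 cells). These intervals leave out the spread between cells and embryos.

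**Figure D4:**
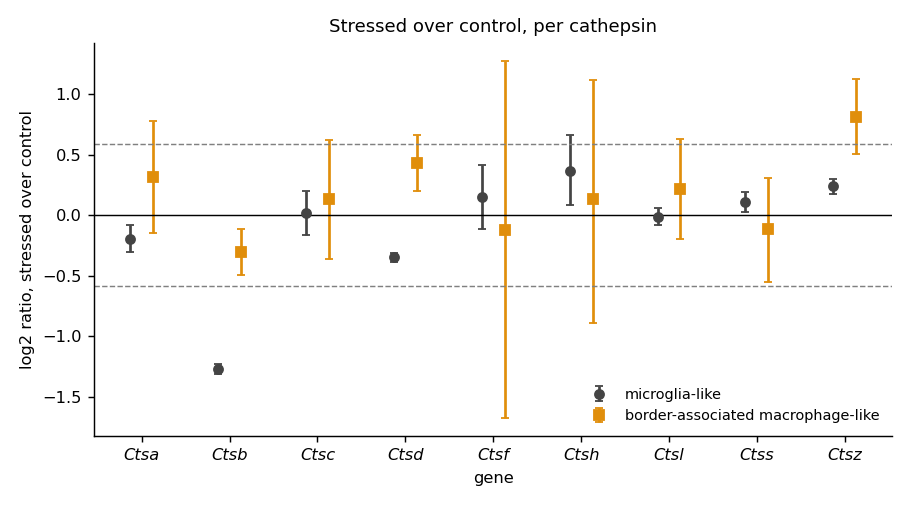
Log2 ratio of stressed over control CPM for each cathepsin in microglia-like (circles) and border-associated macrophage-like (squares) cells, with exact 95% intervals of counting error and dashed lines at 1.5 times. Ctsb in microglia-like cells (-1.27) and Ctsz in border-associated cells (0.82) lie past the dashed lines.

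Neural-like cells, which lack the sorted proteins, held little cathepsin RNA. In neural-like cells Ctsb stood at 82.2 CPM in the control and 104 CPM in the stressed library, 1.71% and 5.20% of its microglia-like level. Ctsd stood at 82.2 and 111 CPM, or 1.54% and 2.65%. Ctss was at 0.23% and 1.23% of its microglia-like level, and Ctsh had 0 and 1 UMI in 196 and 150 cells. At equal depth, 0 of 160 control and 0 of 141 stressed neural-like cells held a Ctsh UMI, which allows shares of up to 1.88% and 2.13%. In this class Ctsb and Ctsd did not share the lower stressed levels seen in microglia-like cells.

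Monocyte or granulocyte-like cells held more cathepsin RNA than neural-like cells, but only 8 control and 9 stressed cells met their markers. The 9 members together stood at 3150 CPM in the former and 4673 CPM in the latter, 20.9% and 40.7% of the microglia-like level, with Ctsc at 536 and 1305 CPM. A cluster of 32 and 27 cells led by Lyz2, Ifitm3 and Lgals3 was also read, chosen after its values were seen, and none of the 13 gate markers was among its 10 leading genes. In that cluster Ctsc stood at 687 CPM in the control and 807 CPM in the stressed library, and Ctsh at 396 and 279 CPM. Both genes were above their microglia-like levels there, while Ctsb at 581 and 777 CPM and Ctsd at 383 and 418 CPM were below theirs.

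Other cathepsin genes were scarce in gated cells, those placed in a class. Of 14 further features named as cathepsins, only Ctso and Ctse reached 10 UMIs in the gated cells of both libraries together. Ungated cells were left out of these counts. Ctso, a cysteine protease, stood at 26.3 CPM in control and 22.6 CPM in stressed microglia-like cells. Ctse, an aspartic protease related to Ctsd, stood at 27.5 and 17.5 CPM. Ctsk, the protease of bone-resorbing osteoclasts, had 6 UMIs in gated cells, Ctsw had 3, and the other 10 had none there.

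The proteins that inhibit, sort and accompany cathepsins were read from 4 lists in microglia-like cells, with genes of at least 10 CPM measured. Of all genes at that level, 7.87% were lower and 3.42% higher by more than 1.5 times. Of the inhibitors, 4 of 12 were measured, 2 were lower by more than 1.5 times and none was higher, with a median log2 ratio of -0.54 against -0.09 over all genes of at least 10 CPM. Slpi, an inhibitor of neutrophil serine proteases, stood at 73.3 CPM in the control and 13.1 CPM in the stressed library (log2 ratio -2.48). Serpinb6a stood at 18.3 and 10.1 CPM (30 and 51 UMIs), a log2 ratio of -0.86 (-1.53 to -0.15). Cst3, the secreted cystatin of microglia, stood at 15053 and 12871 CPM (-0.23), and the cytosolic cystatin Cstb at 462 and 575 CPM (0.32). Both cystatins were within 1.5 times, and the median of the inhibitors rests on these 4 genes alone. Among genes of processing and sorting, 1 of 12 measured was lower, a share near the 7.87% of all genes, and none was higher, with a median of -0.11. The 1 that was lower was Sorl1 (-0.78), a sorting receptor, with 24 and 43 UMIs and an interval of -1.53 to 0.006 that spanned 0. The progranulin gene Grn (-0.47), Gnptab (-0.45), which begins the mannose 6-phosphate tag, and Cd74 (0.53), the invariant chain, were within 1.5 times. The intervals of Gnptab and Cd74 spanned 0.

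Of the lysosomal membrane proteins and regulators, 1 of 14 measured was lower, again near the 7.87% of all genes, and none was higher, with a median of -0.21. It was Npc1 (-0.82), which exports cholesterol from the lysosome. The calcium channel gene Mcoln1 (-0.55), the transcription factor gene Tfe3 (-0.51) and Tmem192 (-0.41) were within 1.5 times, and the interval of Mcoln1 spanned 0. Of other lysosomal hydrolases, 1 of 30 measured was higher and 1 lower, beside 3.42% higher and 7.87% lower over all genes, with a median of -0.16. Acp5, an acid phosphatase, was the higher one, at 10.4 CPM in the control and 31.6 CPM in the stressed library. Arsa (-0.55), which degrades a glycolipid, was within 1.5 times, with 20 and 42 UMIs and an interval of -1.35 to 0.30 that spanned 0.

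The genes whose levels ran most alike to each cathepsin were sought across 14 groups of library and class or state with at least 20 cells, by Pearson correlation of log2(CPM + 10) over 5195 genes. The groups share 2 libraries, and neural-like cells low in all macrophage genes weigh heavily in each value. For Ctsb the closest were Myo1f (0.982) and AI413582 (0.980), and for Ctsd Edem1 (0.994) and Syngr1 (0.989). For Ctss they were Lgmn (0.998) and Fcrls (0.995), for Ctsl Syngr1 (0.980) and Rasgrp3 (0.979), and for Ctsz Bcl2a1b (0.993) and Trem2 (0.991). Ctsa was closest to Tyrobp (0.992) and Hexa (0.990), and Ctsc to Tpp1 (0.978) and Cyba (0.978). The likeness was lowest for Ctsh, with Tnfaip8l2 (0.960) and Cmtm7 (0.957), and for Ctsf, with Rhob (0.957) and Scamp2 (0.946).

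Many lysosomal genes carry near their start the palindrome TCACGTGA, the core of the element read by the transcription factor TFEB, and the shorter palindrome CACGTG lies within it. The 250 bases before the start were read from RefSeq (GRCm38.p6) for 7 of the 9 cathepsins, in 8 windows since Ctsa has a pair of starts. Ctsb and Ctsh had no window. TCACGTGA was found in windows of 2 genes, Ctsa and Ctsd, and in 0.785% of 32851 windows of all genes. CACGTG was found in 4 genes, Ctsa, Ctsd, Ctsf and Ctsl, and in 6.02% of all windows. The windows of Ctsc, Ctss and Ctsz held neither. Both motifs read the same on either strand, and a match is a run of letters, not a measured binding site.

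The windows of Ctsd and Ctsa are shown because they hold the longer motif, and that of Ctsz as an example with neither. Ctsz was picked over Ctsc and Ctss because, of these genes, its level differed most in the direction opposite to that of Ctsd in microglia-like cells. Their log2 ratios were 0.24 for Ctsz, 0.02 for Ctsc and 0.11 for Ctss. The choice therefore says nothing on a link between motif and level, which was not tested. Capitals mark the motifs. Counted from the RefSeq starts, the longer one begins 99 bases before that of Ctsd and 13 bases before the second one of Ctsa. A separate CACGTG begins 245 bases before the RefSeq start of Ctsd. GENCODE M21 places the 5′ ends farther upstream, at 142388038 for Ctsd and 164832873 for Ctsa. The longer motif of each thus lies inside the GENCODE gene span, as does the whole Ctsl window. The window of the first Ctsa start held neither motif. Each is given 5′ to 3′ on the strand of its gene.
Ctsd (chr7:142387828-142388077, minus strand): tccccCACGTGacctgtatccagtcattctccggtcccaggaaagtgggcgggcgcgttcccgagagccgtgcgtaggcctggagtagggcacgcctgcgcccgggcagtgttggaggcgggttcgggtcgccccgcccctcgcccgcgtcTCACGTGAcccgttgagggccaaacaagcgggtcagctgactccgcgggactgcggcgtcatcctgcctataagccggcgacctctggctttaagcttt
Ctsa (chr2:164833523-164833772, plus strand): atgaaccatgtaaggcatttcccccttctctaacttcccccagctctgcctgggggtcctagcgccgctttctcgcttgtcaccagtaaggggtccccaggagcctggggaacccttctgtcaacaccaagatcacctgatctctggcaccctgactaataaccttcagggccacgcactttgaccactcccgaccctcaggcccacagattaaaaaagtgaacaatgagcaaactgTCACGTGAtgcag
Ctsz (chr2:174439040-174439289, minus strand): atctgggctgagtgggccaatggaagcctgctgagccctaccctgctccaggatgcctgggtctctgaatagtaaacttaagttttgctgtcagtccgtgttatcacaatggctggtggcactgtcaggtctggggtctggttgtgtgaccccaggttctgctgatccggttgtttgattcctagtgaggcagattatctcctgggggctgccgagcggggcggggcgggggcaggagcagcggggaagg

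The genes themselves lie on 7 chromosomes. Ctsb spans chr14:63122462-63145923 on the plus strand of GRCm38 (GENCODE M21) and overlaps Fdft1 on the other strand, which had 14 UMIs in control and 41 in stressed microglia-like cells. Ctsd spans chr7:142375911-142388038 on the minus strand and overlaps the model Gm49369 on its own strand, which had 0 UMIs in both. Ctsz spans chr2:174427493-174439039 on the minus strand and overlaps Nelfcd on the other strand, with 15 and 55 UMIs. The opposite-strand neighbours of Ctsa (Neurl2, Pltp), Ctsc (Gm26522) and Ctsl (Gm47123) had between 0 and 115 UMIs. How counting used the strand is not given in the sources used here.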

How the data were processed

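Droplet single-cell RNA was counted in 1 control and 1 stressed library (10x Genomics 3′, v3 chemistry). The authors deposited raw UMI counts for each gene in the barcodes called as cells. Per the submitters' processing notes, Cell Ranger 3.0.0, STAR and Seurat 2.4 were involved with build GRCm38.p5 (mm10); their roles are not given in the sources used here. No cell annotation by the authors was used. The members and lists were chosen with earlier results of these data known.

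Barcodes under 500 genes or over 10% mitochondrial UMIs were dropped. Classes were gated by marker UMIs: the leading list needed 3 detected markers and 2 times the UMIs of the next list. This left 141 control and 98 stressed cells ungated, and 27 and 34 microglia-like cells within 3 times of the border list. States followed in order: G2 and mitosis, then S phase (3 markers and 0.2% of UMIs), Ccl3 or Ccl4 (2 UMIs and 0.1%), Spp1 (0.5%), and otherwise resting-type. Doublets were kept.

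Counts were summed per class and divided by the class total (CPM). Microglia-like sums held 1637117 and 5034045 UMIs. Ratios have exact conditional intervals, levels exact Poisson and shares Clopper-Pearson intervals. Differences between classes have normal intervals of counting error. A share of 0 allows up to 3 cells. Calls need 50 CPM in a library (lists 10 CPM) and 1.5 times. The text names all members, other cathepsins with 10 UMIs in gated cells, up to 4 genes per list with the largest ratios, and the 2 closest genes per member. Some genes that this rule takes are not reported here. The interval step was tested on simulated data. Python 3.11.15, scanpy 1.11.5, edgeR 4.0.16 for TMM factors, DESeq2 1.42.0 for its size factors and matplotlib 3.10.9 were used. The alternatives covered scaling, thinning, cell filters, doublets, clusters computed without cathepsins, cycling cells, female cells and state shares.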

Additional observations from a re-analysis of the deposited data

Results flagged for a closer look

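The log2 ratio of Ctsd, stressed over control, was -0.35 in microglia-like cells and 0.43 in border-associated macrophage-like cells, so the ratio between the libraries had opposite signs in the 2 classes. With 1 library per condition this difference was not tested between conditions, and the border class held only 28 stressed cells.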

How the results depend on the processing

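Ctsb was lower in stressed microglia-like cells under all 13 alternatives, with log2 ratios between -1.33 and -1.17. It was -1.17 with TMM factors or DESeq2 size factors, -1.33 with the mean of per-cell CPM and -1.21 in cells with Xist and no Y-linked UMI (215 control and 1048 stressed cells). The summed level of -0.40 was -0.29 with TMM factors or DESeq2 size factors, -0.34 in the cells with Xist, and -0.37 with the control library's state shares. TMM and DESeq2 scaling raised all log2 ratios by 0.11. Ctsb was the only member past 1.5 times except under the filter of 1000 genes and 5% mitochondrial UMIs (316 and 846 cells), where 2 members passed, Ctsh being higher (0.73); the cause was not tested. Ctsl kept its sign in 6 of 13 alternatives and Ctsc in 10. The other 6 members kept theirs in all 13. State gates on thinned cells left Ctsb lower in 5 of 5 states. Leaving out shared barcodes, and adding ungated macrophages, were chosen after seeing the data. No paired analysis was possible because each condition was 1 library. Leaving out a replicate was likewise not possible.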
